A study of Homo sapiens with 6 samples.

Results

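This report describes the transcripts of 10 genes whose products let a tumour cell restrain T cells, NK cells and macrophages, in AsPC-1 cells with and without additional MMP28. They were picked by symbol out of the 58735 genes of the read count table, and all 10 were found there. NT5E was included as an enzyme that produces adenosine, and the others as ligands of inhibitory receptors. AsPC-1 is an established human pancreatic cancer cell line. The 6 libraries comprise 3 of the Vector group, whose cells carry an empty lentivirus, and 3 of the OE-MMP28 group, whose virus held the MMP28 cDNA. The deposited titles call these libraries NC and OE. Vector is the study's name for its overexpression control, and matching NC to it is an inference. Values per library are given below in the order of replicates 1, 2 and 3. Both groups had otherwise unmodified cells of the same line, the virus carried GFP and a puromycin resistance gene, and infected cells had been selected as a population with puromycin. MMP28 encodes a secreted matrix metalloproteinase, and the study asked how it alters the exchange between cancer cells and macrophages. The cells were grown without immune cells, so the values show what the cancer cells transcribe and not what a macrophage or T cell meets at the surface.

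Tumour cells use several surface proteins as brakes on immune cells. PD-L1 (CD274), PD-L2 (PDCD1LG2), B7-H3 (CD276) and B7-H4 (VTCN1) belong to the B7 family and dampen T cells, the first pair through the receptor PD-1. CD47 binds SIRP-alpha and CD24 binds Siglec-10 on macrophages, and both are known as "do not eat me" signals. Galectin-9 (LGALS9) is a ligand of TIM-3. PVR (CD155) and nectin-2 (NECTIN2) bind the inhibitory receptor TIGIT and the activating receptor DNAM-1 (CD226). CD73 (NT5E) makes adenosine from AMP outside the cell, and adenosine suppresses T cells and NK cells through its own receptors.

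In the OE-MMP28 group the transcripts of NT5E and PVR were higher, that of CD47 was lower, and those of NECTIN2, CD276 and LGALS9 did not pass the test. The call of PVR was the least stable, kept in 15 of 19 alternative fits, against 18 for NT5E and all 19 for CD47. NT5E rose 1.72-fold in mean FPKM (fragments per kilobase of exon per unit of sequencing depth), PVR rose 1.46-fold, and the OE-MMP28 mean of CD47 was 0.589 of the Vector mean. CD274, VTCN1, CD24 and PDCD1LG2 had counts at or close to 0 in all 6 libraries, and reads of CD24 may be shared with its copies. The filter on low counts left 6 of the 10 genes in the test, and these passed it in both groups. Of the 6, 2 were higher and 1 was lower at an adjusted p under 0.05, where 11.7% and 11.6% of all 15319 genes tested were higher and lower. The groups did not overlap in FPKM for the same 3 genes, against 38.1% of all genes tested. The median log2 fold change of the 6 genes was 0.029, beside 0.014 over all genes tested.

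The promoters of the 3 genes that differed are shown with that of CD274, whose transcript was nearly absent, so that a reader can see what lies before each start. Each is the 250 bases before the RefSeq start of the gene, 5′ to 3′ on the strand of the gene, on build GRCh38.p14. Capitals mark matches to the motifs named in the next paragraph, except the E-box. RefSeq starts differ from the gene bounds given below, which follow the count table: by those bounds the stretches of NT5E and CD47 lie inside the gene, and those of PVR and CD274 lie partly inside. The positions are chr6:85449833-85450082 (plus strand) for NT5E, chr3:108091032-108091281 (minus strand) for CD47, chr19:44643660-44643909 (plus strand) for PVR and chr9:5450292-5450541 (plus strand) for CD274.
NT5E: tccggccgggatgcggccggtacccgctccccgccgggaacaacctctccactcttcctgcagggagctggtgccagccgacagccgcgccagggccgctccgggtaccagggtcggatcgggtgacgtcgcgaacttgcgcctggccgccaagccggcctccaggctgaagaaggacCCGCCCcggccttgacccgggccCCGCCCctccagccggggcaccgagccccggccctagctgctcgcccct
CD47: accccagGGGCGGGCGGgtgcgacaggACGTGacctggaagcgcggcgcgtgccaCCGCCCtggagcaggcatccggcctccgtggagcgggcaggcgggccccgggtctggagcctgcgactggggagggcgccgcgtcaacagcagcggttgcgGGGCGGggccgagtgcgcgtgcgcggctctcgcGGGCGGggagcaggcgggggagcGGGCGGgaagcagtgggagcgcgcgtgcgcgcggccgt
PVR: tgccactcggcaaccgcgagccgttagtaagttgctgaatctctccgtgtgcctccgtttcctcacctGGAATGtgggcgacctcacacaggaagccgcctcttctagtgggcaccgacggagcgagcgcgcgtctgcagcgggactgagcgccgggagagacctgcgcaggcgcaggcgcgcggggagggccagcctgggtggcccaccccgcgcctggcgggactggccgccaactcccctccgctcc
CD274: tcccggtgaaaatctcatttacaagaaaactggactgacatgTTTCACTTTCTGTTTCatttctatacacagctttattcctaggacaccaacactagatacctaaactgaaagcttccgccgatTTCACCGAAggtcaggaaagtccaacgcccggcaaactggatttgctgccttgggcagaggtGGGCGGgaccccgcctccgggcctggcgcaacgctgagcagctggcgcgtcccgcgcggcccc

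The motifs were searched on both strands, overlapping matches included: the GC box GGGCGG, AP-1 TGANTCA, the STAT site (GAS) TTCNNNGAA, the core of the interferon response element (GAAA, any 2 bases, GAAA), the hypoxia core ACGTG, CRE TGACGTCA, TEAD GGAATG, the TATA box TATAAA and NF-kB GGGANTTCC. NT5E held 2 GC boxes and CD47 held 6, of which the first 2 overlap, while 42.6% of the 35116 promoters in the table hold at least 1. CD47 also held the hypoxia core, present in 18.5% of promoters, and PVR held the TEAD motif, present in 11.9%. The CD274 promoter held 2 overlapping interferon response cores, a motif found in 3.02% of promoters, 1 STAT site, found in 6.57%, and 1 GC box. The GC content was 75.2% for NT5E, 79.6% for CD47, 70% for PVR and 54.8% for CD274, where the mean of all promoters was 57.2%. The E-box CANNTG, present in 61.8% of promoters, was also searched and matched in PVR and CD274, and it is not capitalised. A match of letters is a description and does not show that a factor was bound. A promoter sequence was at hand for 9 of the 10 genes, all but PDCD1LG2.

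Total counts ranged from 13633249 to 16691458 per library, so 3 counts, the limit that a count of 0 allows, correspond to between 0.18 and 0.22 CPM (counts scaled to the library total), for counting error only. The MMP28 transcript itself was higher where the virus carried it, at 7.57 ± 2.11 FPKM against 14 ± 1.01 FPKM in OE-MMP28 cells (each SD, n = 3). Of the 6 epithelial markers, EPCAM, KRT8, KRT18 and KRT19 had group means between 288 and 1300 FPKM, CLDN4 had 107 FPKM in Vector and 69.3 FPKM in OE-MMP28 cells, and KRT7 was low, at 1.14 and 1.81 FPKM. KRT19 was called higher (adjusted p = 0.00175) and CLDN4 lower (adjusted p = 0.0135), and the 6 summed to between 2660 and 3630 FPKM in Vector libraries against 3560 to 4370 FPKM in OE-MMP28 libraries. Of the 7 T and NK cell markers, 6 had at most 10 counts in any library, CD3E and CD2 were at 0, and the summed level was between 0.271 and 1.14 FPKM. The 7 macrophage markers summed to between 1.05 and 1.2 FPKM in the Vector group and between 0.794 and 0.984 FPKM in the OE-MMP28 group, most of it CD14, with C1QA at 0. The 5 fibroblast markers summed to between 33.9 and 57 FPKM, which was nearly all lumican (LUM), and the 3 endothelial markers to between 0.0441 and 0.17 FPKM in the Vector group and between 0.179 and 0.293 FPKM in the OE-MMP28 group, where PECAM1 rose from at most 4 counts to between 13 and 30 (adjusted p = 0.00361). Mitochondrial genes took between 11.9% and 14.8% of a Vector library and between 8.8% and 11.9% of an OE-MMP28 library. With mitochondrial genes left out, NT5E (0.76, adjusted p = 0.00141) and PVR (0.53, adjusted p = 0.021) were still called higher and CD47 (-0.78, adjusted p = 0.000833) lower on the log2 scale. The part of the marker levels in the results below was not tested. No label says that the libraries of a group came from separate cultures, so p-values measure the spread between these libraries, which may be technical. In bulk RNA, fewer cells with a transcript and less of it per cell cannot be told apart.

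**Figure D1:**
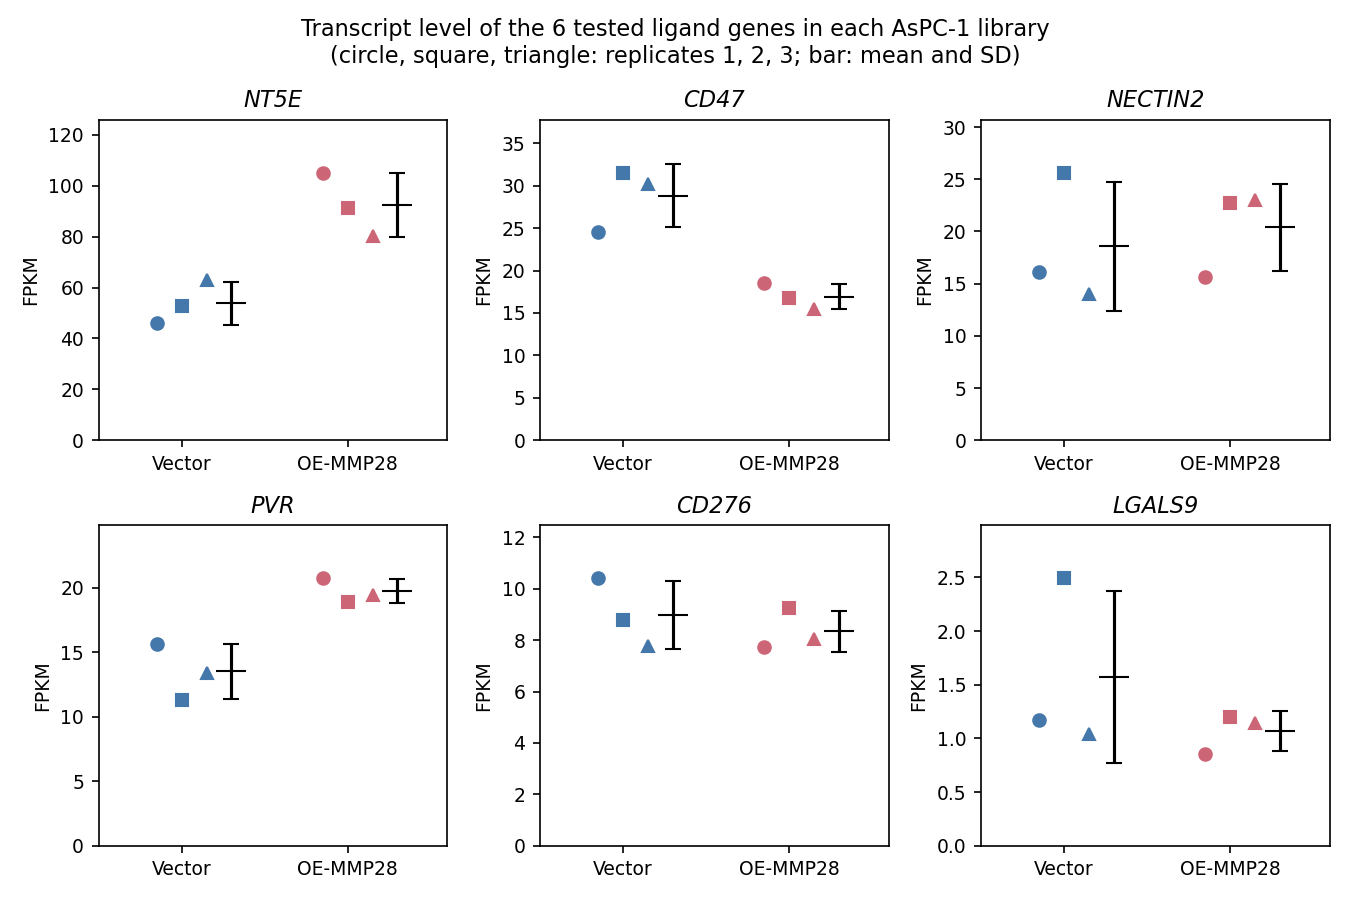
FPKM (y axes, each from 0) of the 6 tested genes in the 3 Vector libraries (blue) and the 3 OE-MMP28 libraries (red), with circles, squares and triangles for replicates 1, 2 and 3 and bars for the mean and SD. The groups separate for NT5E, CD47 and PVR and overlap for NECTIN2, CD276 and LGALS9.

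NT5E, the ecto-5′-nucleotidase that completes the extracellular path from ATP to adenosine, had the highest level of the 10 genes in every library (ENSG00000135318, chr6:85449584-85495791, plus strand). Its FPKM was 46, 52.6 and 62.8 in Vector libraries against 105, 91.4 and 80.4 in OE-MMP28 libraries, from between 3185 and 7551 counts per library. The lowest OE-MMP28 library lay above the highest Vector library. The means were 53.8 ± 8.49 FPKM against 92.4 ± 12.5 FPKM in OE-MMP28 cells (each SD, n = 3), and the log2 fold change was 0.79 (SE 0.156, 95% interval 0.46 to 1.11, adjusted p = 0.00118). Among all genes tested, ranked by mean FPKM, NT5E stood at 613 in the Vector group and at 347 in the OE-MMP28 group. The call was kept in 18 of 19 alternative fits and was lost in a limma fit of unfiltered log2(FPKM + 1), where the value was 0.77 (adjusted p = 0.0638).

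CD47, the ligand of SIRP-alpha that holds back phagocytosis, was the second most abundant of the 10 in the Vector group (ENSG00000196776, chr3:108043094-108091862, minus strand). Its FPKM was 24.5, 31.5 and 30.2 in Vector libraries against 18.5, 16.8 and 15.5 in OE-MMP28 libraries, from between 2151 and 3661 counts. Every OE-MMP28 library lay below every Vector library, and the spread within the OE-MMP28 group was small. The group values were 28.8 ± 3.71 FPKM against 16.9 ± 1.48 FPKM in OE-MMP28 cells (each SD, n = 3), and the log2 fold change was -0.75 (SE 0.149, 95% interval -1.07 to -0.44, adjusted p = 0.00121). By mean FPKM it stood at 1329 among the genes tested in the Vector group and at 2624 in the OE-MMP28 group. The call was kept in all 19 alternative fits, where the adjusted p ranged from 1.37e-05 to 0.0468.

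PVR, a cell surface protein of the nectin-like group that engages TIGIT, CD96 and CD226, was also higher in the OE-MMP28 group (ENSG00000073008, chr19:44643798-44663583, plus strand). Its FPKM was 15.6, 11.3 and 13.4 in Vector libraries against 20.7, 18.9 and 19.4 in OE-MMP28 libraries, from between 538 and 1152 counts. The OE-MMP28 libraries lay close together and above all Vector libraries. The means were 13.5 ± 2.16 FPKM against 19.7 ± 0.936 FPKM in OE-MMP28 cells (each SD, n = 3), and the log2 fold change was 0.56 (SE 0.159, 95% interval 0.23 to 0.89, adjusted p = 0.015). The call was kept in 15 of 19 alternative fits. The adjusted p was 0.067 without Vector replicate 2, 0.0624 without Vector replicate 3 and 0.0583 without OE-MMP28 replicate 2, with log2 fold changes of 0.44, 0.56 and 0.57, and it was 0.0888 in a limma fit of unfiltered log2(FPKM + 1). Of the exon bases of PVR, 3.44% also belong to CEACAM19, which is transcribed in the same direction, and its own log2 fold change was -0.61 (adjusted p = 0.159).

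NECTIN2, which shares the receptors TIGIT and CD226 with PVR and lies 0.214 Mb from it, showed no such separation (ENSG00000130202, chr19:44846175-44889228, plus strand). Its FPKM was 16.1, 25.6 and 14 in Vector libraries against 15.6, 22.7 and 23 in OE-MMP28 libraries. Vector replicate 2 was the highest of all 6 libraries and OE-MMP28 replicate 1 the second lowest. The log2 fold change was 0.15 (95% interval -0.27 to 0.58, adjusted p = 0.636), so a rise as large as that of PVR was not shut out by this interval. Without Vector replicate 3 the direction was the opposite, at -0.016 (adjusted p = 0.976), and without Vector replicate 2 the value was 0.45 (adjusted p = 0.0858). The antisense gene AC011481.2 covers 3.42% of the exon length of NECTIN2, and whether the counting used strand is not given in the sources used here.

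Within libraries, the ratio of PVR to NECTIN2 in FPKM was 0.968, 0.442 and 0.963 in the Vector group and 1.33, 0.832 and 0.846 in the OE-MMP28 group, so that the groups overlapped. The ratio of NT5E to CD47 was 1.87, 1.67 and 2.08 in Vector libraries against 5.7, 5.45 and 5.17 in OE-MMP28 libraries. The lowest ratio among the OE-MMP28 libraries lay above the highest among the Vector libraries. This had to be so, because NT5E and CD47 each separated the groups, in opposite directions, and it adds no further support.

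CD276 was expressed at a middle level in both groups (ENSG00000103855, chr15:73683966-73714518, plus strand). Its FPKM was 10.4, 8.8 and 7.76 in Vector libraries against 7.74, 9.25 and 8.06 in OE-MMP28 libraries. The groups overlapped, and the log2 fold change was -0.094 (95% interval -0.43 to 0.24, adjusted p = 0.721). Without Vector replicate 1 it was 0.025 (adjusted p = 0.943).

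LGALS9 was low, with between 77 and 192 counts per library (ENSG00000168961, chr17:27629798-27649560, plus strand). Its FPKM was 1.17, 2.49 and 1.04 in Vector libraries against 0.852, 1.2 and 1.14 in OE-MMP28 libraries. Vector replicate 2 stood above the other 5 libraries, which overlapped. The log2 fold change was -0.53 (95% interval -1.13 to 0.063, adjusted p = 0.188). Without Vector replicate 2 it was -0.041 (adjusted p = 0.936). Reads may be shared with other genes. Of the distinct 50-base stretches of LGALS9 transcripts, 13.2% also occur in transcripts of other genes, among them the copies LGALS9C and LGALS9B. Some also occur in AC015688.4, an overlapping gene transcribed in the same direction. It shares 5.15% of the exon bases of LGALS9, and its counts are not given here. LGALS9B had no count in any library and LGALS9C had 3 counts in OE-MMP28 replicate 3 and none elsewhere.

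**Figure D2:**
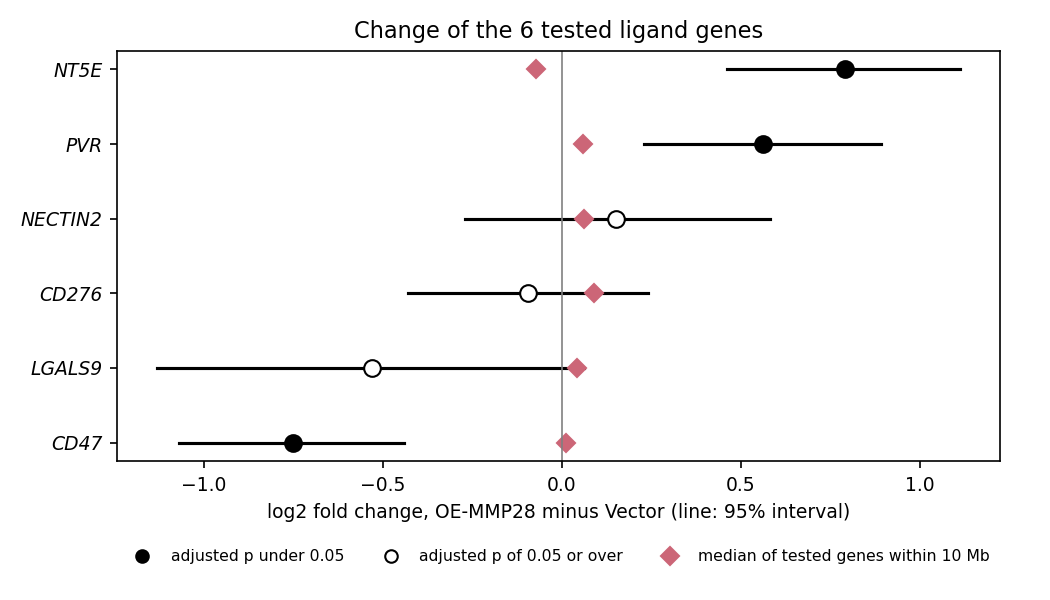
Log2 fold change (x axis, OE-MMP28 minus Vector) of the 6 tested genes with its 95% interval. Filled circles have an adjusted p under 0.05, and red diamonds give the median of the tested genes within 10 Mb, which stays between -0.073 and 0.091 for all 6.

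The remaining 4 genes fell under the filter and were not tested. CD274, which encodes PD-L1 (ENSG00000120217, chr9:5450503-5470566, plus strand), had counts of 4, 0 and 0 in Vector libraries against 2, 1 and 4 in OE-MMP28 libraries, at most 0.267 CPM. PDCD1LG2, its neighbour (ENSG00000197646, chr9:5510570-5571254, plus strand), had a count of 0 in all 6 libraries. VTCN1 (ENSG00000134258, chr1:117143587-117210960, minus strand) had counts of 4, 1 and 0 in the Vector group and of 0, 0 and 1 in the OE-MMP28 group. These 3 genes were thus near the limit of detection, and a difference of a few counts was not detectable at this depth.

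CD24, the Siglec-10 ligand (ENSG00000272398, chr6:106969831-106975627, minus strand), had counts of 2, 1 and 7 in Vector libraries against 4, 3 and 4 in OE-MMP28 libraries. Its mean was 0.0732 FPKM in either group. CD24 has pseudogene copies, and how reads that match several places were handled is not given in the sources used here. Of the distinct 50-base stretches of its annotated transcripts, 5.26% also occur in annotated transcripts of other genes, and copies outside annotated transcripts were not searched. For CD274, PDCD1LG2 and NT5E this share was 0%. Of the stretches of CD24, 3.62% occur in the copy CD24P4, whose counts are not given here.

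By mean FPKM, which is per gene length, the order in the Vector group was NT5E, CD47, NECTIN2, PVR, CD276, LGALS9, CD24, VTCN1, CD274 and PDCD1LG2. Neighbours in this order whose libraries overlapped were CD47 and NECTIN2, NECTIN2 and PVR, and those from CD24 downwards. In the OE-MMP28 group CD47 stood behind NECTIN2 and PVR, and its highest library, at 18.5 FPKM, lay below the lowest of PVR, at 18.9 FPKM. The libraries of NECTIN2 and PVR overlapped there.

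**Figure D3:**
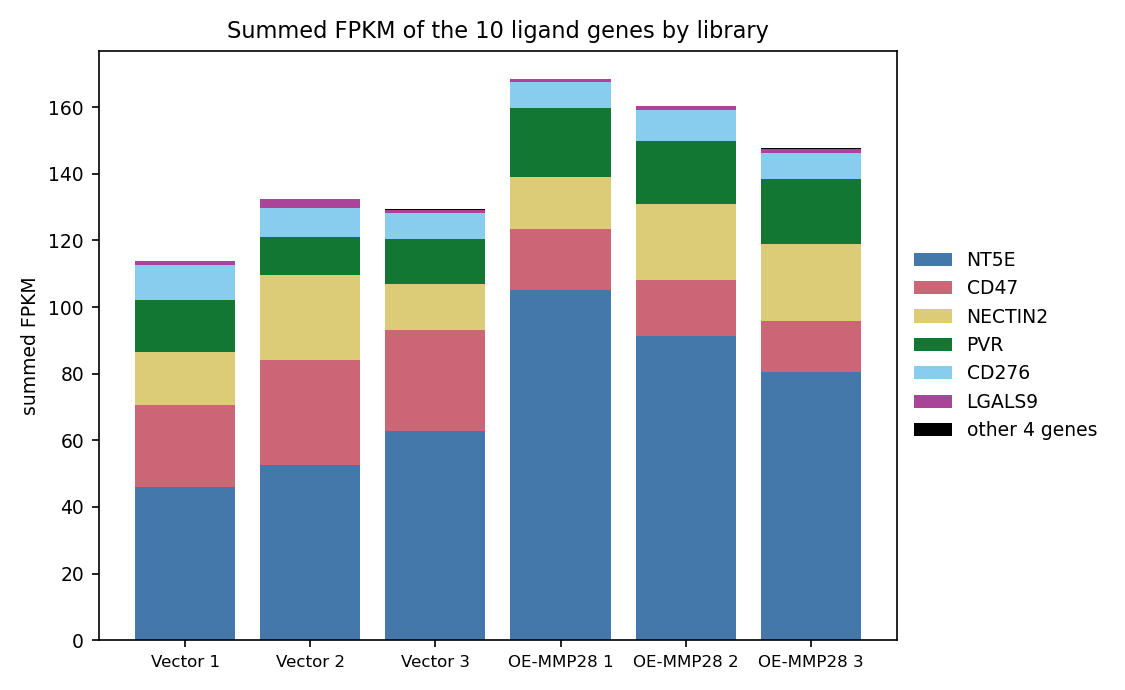
Stacked FPKM (y axis, from 0) of the 10 genes in each library (x axis). NT5E makes up between 39.7% and 48.5% of the bar in Vector libraries and between 54.4% and 62.4% in OE-MMP28 libraries, while CD47 makes up between 21.5% and 23.8% and between 10.5% and 11%.

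The summed FPKM of the 10 genes was 114, 132 and 129 in Vector libraries against 169, 160 and 148 in OE-MMP28 libraries. In the plot of stacked levels by library NT5E had the largest rise, from a mean of 53.8 to 92.4 FPKM. The fall of CD47, from 28.8 to 16.9 FPKM, went the other way in the sum. PVR took between 8.54% and 13.7% of the sum in the Vector group and between 11.8% and 13.2% in the OE-MMP28 group. A transcript sum says nothing on the combined strength of the signals, whose proteins act through different receptors.

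Position was not used to choose the genes, and the levels of their neighbours were compared. Of the 49 tested genes within 10 Mb of NT5E, 1 was called higher and 5 lower. Over all genes tested, 11.7% were called higher and 11.6% lower. The 49 genes had a median log2 fold change of -0.073, and 2 of them rose more than NT5E. The nearest tested genes, SNX14, LINC02535 and SYNCRIP, had log2 fold changes of -0.17, 0.21 and 0.35, with adjusted p-values of 0.473, 0.509 and 0.135. Around CD47, 58 genes had a median of 0.012, with 8 called higher and 2 lower, and 4 fell more than CD47. Its nearest tested neighbours IFT57 and HHLA2, the latter another member of the B7 family, had log2 fold changes of -0.29 and -0.24 with adjusted p-values of 0.214 and 0.336, and MYH15 rose by 0.74 (adjusted p = 0.00327). PVR lies in a dense part of chromosome 19, where 414 tested genes had a median of 0.06. Of these, 36 were called higher and 22 lower, and 44 rose more than PVR. Its nearest tested genes AC243964.3, CEACAM19 and AC243964.2 had log2 fold changes of 0.059, -0.61 and -0.7, with adjusted p-values of 0.88, 0.159 and 0.274. With an offset for the local median the log2 fold changes were 0.86 for NT5E, -0.77 for CD47 and 0.50 for PVR, with adjusted p-values of 0.00079, 0.00156 and 0.0389.

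**Figure D4:**
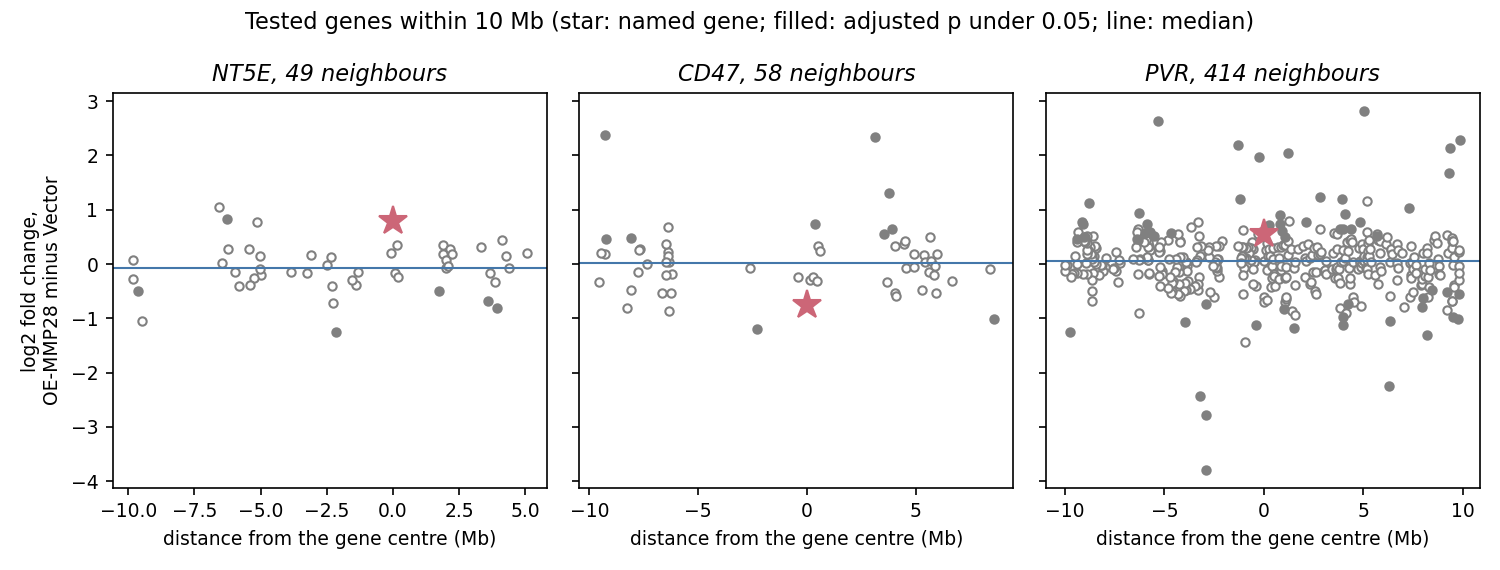
Log2 fold change (y axis, OE-MMP28 minus Vector) of the tested genes within 10 Mb of NT5E, CD47 and PVR against the distance from the centre of each gene (x axis, Mb). The star is the named gene, filled points have an adjusted p under 0.05 and the line is the median of the neighbours, which is -0.073, 0.012 and 0.06.

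The partners of these genes were then examined in 6 lists with 85 genes in all, of which 54 were tested. Across the lists 5 genes, or 9.26% of those tested, were higher and 7, or 13%, were lower. These lay close to the 11.7% and 11.6% over all genes tested. A single list held between 3 and 14 tested genes, too few to set its own count against these shares. The median log2 fold changes of the lists lay between -0.31 and 0.12.

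The receptors and related checkpoint receptors were mostly silent, with at most 10 counts in any library for 12 of 18 genes and a count of 0 throughout for TIGIT, CTLA4 and CD28. None of the 3 tested genes passed edgeR's test after adjustment, and 1 of them, the adenosine receptor ADORA2B, had an unadjusted p under 0.05 (0.0389). ADORA2B, which responds to high adenosine, had 3.21 ± 0.316 FPKM against 4.35 ± 0.563 FPKM in OE-MMP28 cells (each SD, n = 3; adjusted p = 0.117). SIRPA, the receptor of CD47, had a log2 fold change of -0.31 (adjusted p = 0.442), and PVRIG, a receptor of nectin-2, one of -0.76 (adjusted p = 0.179) from at most 25 counts.

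Of the 17 other inhibitory ligands 11 were tested, and 3 were higher and 1 was lower, or 2 lower without Vector replicate 1. NECTIN1 and NECTIN3, adhesion proteins of the same family as NECTIN2, were among the 3. Whether either inhibits immune cells was not tested. NECTIN1 had 8.03, 6.56 and 6.62 FPKM in Vector libraries against 15.8, 18 and 17.3 FPKM in OE-MMP28 libraries. Its log2 fold change was 1.28 (SE 0.153, adjusted p = 7.13e-06), and 0.78 with the local-median offset. NECTIN3 was low, with between 19 and 24 counts in the Vector libraries and between 88 and 151 in the OE-MMP28 libraries, and its log2 fold change was 2.34 (SE 0.298, adjusted p = 1.41e-05). In a limma fit of unfiltered log2(FPKM + 1) its adjusted p was 0.055. NECTIN4 had at most 1 count.

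LGALS3, a galectin that binds LAG-3, rose from a Vector mean of 299 ± 4.65 to an OE-MMP28 mean of 544 ± 61.5 FPKM (each SD, n = 3), or 0.87 on the log2 scale (adjusted p = 0.000208). Genes around it had a median of 0.52, and the local-median offset left 0.35 (adjusted p = 0.102). VSIR, which encodes the checkpoint protein VISTA, fell from a Vector mean of 9.34 ± 1.24 to an OE-MMP28 mean of 5.86 ± 0.918 FPKM (each SD, n = 3), or -0.66 on the log2 scale (adjusted p = 0.00895). Its neighbourhood had a median of -0.39, and the local-median offset left -0.27 (adjusted p = 0.316), while the adjusted p was 0.0968 in the unfiltered limma fit. CD80, CD86, CD200 and HLA-G had a count of 0 in all 6 libraries, and IDO1 had at most 3 counts.

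Regulators of PD-L1 were present, while CD274 itself had at most 4 counts. Of 15 genes 14 were tested, none was higher and 1 was lower. The number called lower was 2 without Vector replicate 1, 3 without Vector replicate 2 and 0 without OE-MMP28 replicate 2. The interferon-gamma receptor chains IFNGR1 and IFNGR2 had Vector means of 31.3 and 20.4 FPKM, the transcription factor IRF1 one of 3.33 FPKM and CMTM6, which stabilises PD-L1 protein, one of 22.1 FPKM. Their adjusted p-values ranged from 0.134 for IFNGR1 to 0.854 for IRF1. STAT2, which acts in type I interferon signalling, fell from a Vector mean of 8.79 ± 0.885 to an OE-MMP28 mean of 5.92 ± 0.0731 FPKM (each SD, n = 3), or -0.56 on the log2 scale (adjusted p = 0.0127). Without OE-MMP28 replicate 2 its adjusted p was 0.0661, and in the unfiltered limma fit it was 0.0578.

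A list of 9 genes linked to phagocytosis held "eat me" and bridging factors, the receptor LRP1 and the CD47 ligand THBS1. It also held genes of the inhibition of phagocytosis, namely QPCTL and QPCT, which act on CD47, and B2M, part of a ligand of an inhibitory macrophage receptor. Of these 9 genes 8 were tested, and 1 was higher and 3 were lower. Without Vector replicate 2 the number called higher was 2. THBS1, a secreted ligand of CD47, had 13.1, 13 and 12.7 FPKM in Vector libraries against 8.24, 8.09 and 6.68 FPKM in OE-MMP28 libraries, a log2 fold change of -0.74 (SE 0.147, adjusted p = 0.0012). MFGE8, a bridge between phosphatidylserine and phagocytes, fell by 1.22 on the log2 scale (adjusted p = 0.00036). LRP1, the receptor of calreticulin, had a log2 fold change of -1.11 (adjusted p = 0.00263), which was -0.71 without Vector replicate 2, the library in which it was highest. GAS6, a bridging ligand of the TAM receptors, rose by 1.05 (adjusted p = 0.00134). The calls of MFGE8, LRP1 and GAS6 were lost in a limma fit of unfiltered log2(FPKM + 1), with adjusted p-values of 0.0629, 0.204 and 0.107, and that of LRP1 also in both filtered limma fits of FPKM (0.0725 and 0.0687). Calreticulin (CALR), an "eat me" signal, had 158 ± 8.28 FPKM against 166 ± 6.25 FPKM in OE-MMP28 cells (each SD, n = 3; adjusted p = 0.725). QPCTL, the enzyme that modifies CD47 for SIRP-alpha binding, had a log2 fold change of 0.35 (adjusted p = 0.27).

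In the adenosine pathway 9 of 12 genes were tested, with none higher and 1 lower, and with 1 higher when Vector replicate 2 was left out. ENPP1, an ectoenzyme that releases AMP from ATP, fell from a Vector mean of 1.71 ± 0.354 to an OE-MMP28 mean of 0.921 ± 0.159 FPKM (each SD, n = 3), or -0.88 on the log2 scale (adjusted p = 0.00428). Its adjusted p was 0.0641 and 0.0635 in the filtered limma fits of FPKM and 0.175 in the unfiltered one. ENTPD1, the ATP-degrading ectoenzyme CD39 upstream of CD73, was low, with 0.334 FPKM in the Vector group and 0.237 FPKM in the OE-MMP28 group and an adjusted p of 0.326. ENTPD2, of the same family, was higher than ENTPD1, with 2.24 FPKM in the Vector group and 2.43 FPKM in the OE-MMP28 group (adjusted p = 0.773). ADA and DPP4, which remove adenosine and anchor ADA, had log2 fold changes of -0.055 and 0.037 with adjusted p-values of 0.893 and 0.89. CD38 had a count of 0 in all libraries.

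Ligands that activate NK and T cells were compared as the counterpart. Of 14 genes 9 were tested, and 1 was higher and 1 was lower. MICA, a ligand of NKG2D, fell from a Vector mean of 17.5 ± 1.44 to an OE-MMP28 mean of 12.6 ± 1.02 FPKM (each SD, n = 3), or -0.46 on the log2 scale (adjusted p = 0.043). ULBP1, another ligand of NKG2D, had 10, 7 and 16 counts in Vector libraries against 33, 37 and 25 counts in OE-MMP28 libraries, or 1.38 on the log2 scale (adjusted p = 0.0195). Neither call was kept in all alternatives. The adjusted p of MICA was 0.0555 without Vector replicate 2, 0.212 without Vector replicate 3, 0.0626 without OE-MMP28 replicate 1 and 0.167 without OE-MMP28 replicate 2. With all 6 libraries it was 0.069 without a filter on low counts and 0.0754 in the unfiltered limma fit. That of ULBP1 was 0.0723 without Vector replicate 2, 0.054 without OE-MMP28 replicate 1 and 0.0998 without OE-MMP28 replicate 2, and it was 0.127 in the unfiltered limma fit. The number of these ligands called higher was 2 without Vector replicate 1.

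**Figure D5:**
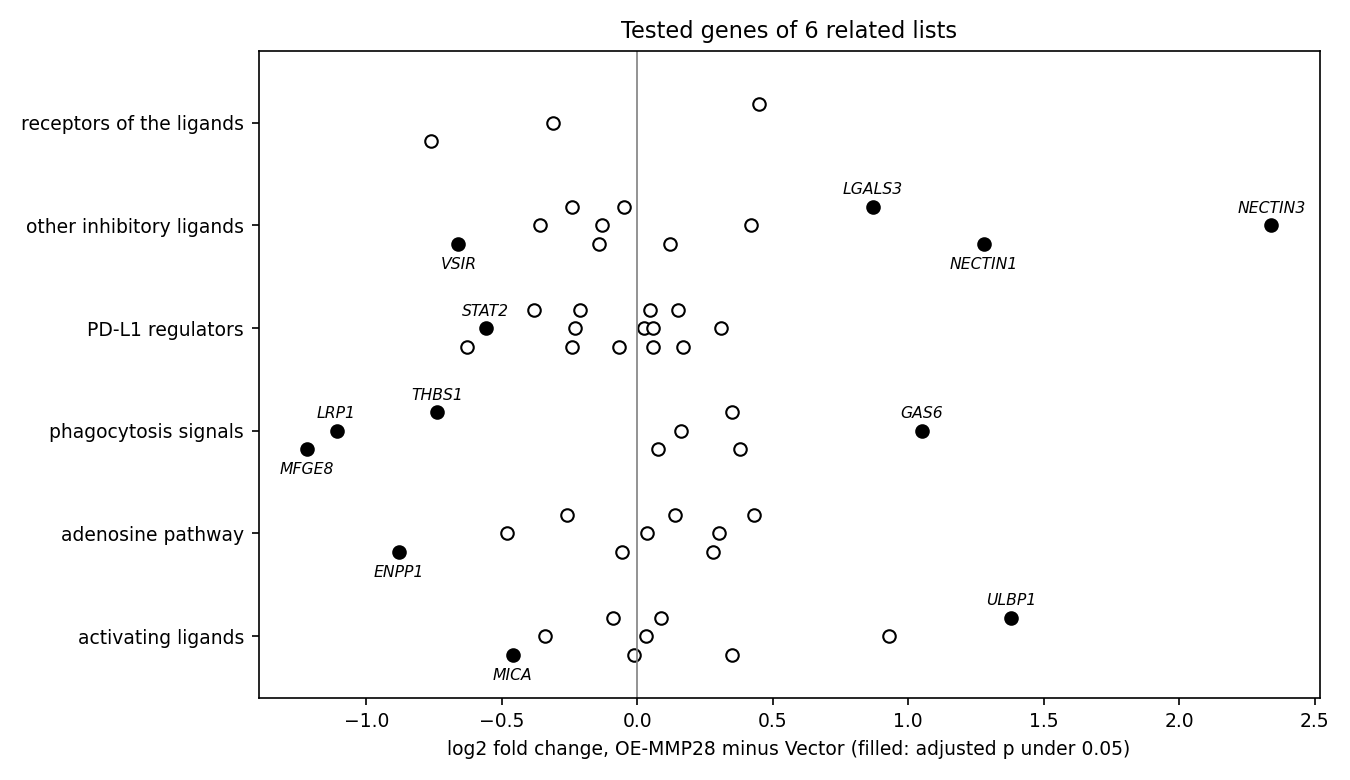
Log2 fold change (x axis, OE-MMP28 minus Vector) of the 54 tested genes of the 6 lists (y axis, 1 band per list, with points spread vertically for legibility). Filled points have an adjusted p under 0.05 and are named; 5 lie on the higher and 7 on the lower side.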

How the data were processed

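RNA of 6 AsPC-1 libraries (3 Vector, 3 OE-MMP28) was sequenced. The authors deposited read counts per gene and FPKM values per gene and library. The submitters' processing notes name HISAT2 2.0.5 and featureCounts 1.5.0-p3; strand and multi-mapping settings are not given in the sources used here. The deposited columns of group means, fold changes and p-values were not used. Coordinates are those of the count table and equal GENCODE on GRCh38 for the 10 genes.

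Counts were filtered (filterByExpr, minimum count 10, minimum total 15), scaled by TMM and tested by group with edgeR 4.0.16 (quasi-likelihood, R 4.3.3), with Benjamini-Hochberg adjustment over all 15319 genes and a threshold of 0.05. All values per library, means and SDs are FPKM or counts, while fold changes and their SEs come from the counts. The code was tested on simulated data. A total of 19 alternatives were run, including DESeq2 1.42.0 and limma 3.58.1. Libraries with the same replicate number did not deviate alike (correlations of deviations 0.0168, 0.00798 and -0.0876). Whether they shared a culture or batch was not tested. The 10 genes and the lists were chosen with earlier results of these data known. By rule the text names the 10 genes, MMP28, list genes that passed the test, at most the 3 nearest tested genes of each called gene, and copies or overlapping genes. List and marker genes that did not pass the test or were at or near 0 were named in addition, after their values were seen. The value of 1 list gene is not reported here.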

Additional observations from a re-analysis of the deposited data

How the results depend on the processing

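The number of the 10 genes called lower was 1 in all 19 alternatives, and the number called higher was 2 except in the fits without 1 library, where it ranged from 1 to 2, and in limma fitted to log2(FPKM + 1) of unfiltered genes, where it was 0. In that last fit the log2 fold changes were 0.77 for NT5E, 0.52 for PVR and 0.84 for MMP28, each with an adjusted p above 0.05, and the lists held 2 genes called higher and 1 called lower. Leaving out 1 library moved PVR between 0.44 and 0.68, NECTIN2 between -0.016 and 0.45, with the opposite direction without Vector replicate 3 (-0.016), and CD276 between -0.19 and 0.025, with the opposite direction without Vector replicate 1 (0.025). The cause was not tested. Over all genes, leaving out 1 library gave between 985 and 1916 genes called higher and between 1044 and 1949 called lower, with 985 and 1044 without OE-MMP28 replicate 2. The counts were 1055 and 1025 in limma on log2(FPKM + 1), 1021 and 985 on log2(FPKM + 0.1), and 362 and 308 without a filter, and 1101 were called higher with the local-median offset. With the replicate block, 2 of the 10 genes were called higher and 1 lower, as without it, and MICA had an adjusted p of 0.055. The titles give replicate numbers only and do not say whether these mark a shared source. CD274, VTCN1, CD24 and PDCD1LG2 were too low to test at this depth. For CD24 the handling of reads that match several places is not known either.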
